A study of Mus musculus with 2 samples.

Results

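The proteasome genes of cardiac leukocytes were examined in the control and isoproterenol (ISO) libraries of a mouse model of Takotsubo-like cardiomyopathy. The genes were taken by symbol, as every row named Psma, Psmb, Psmc, Psmd, Psme or Psmg followed by a number, which gave 50 of 23946 genes. Of these, 47 encode proteasome subunits, activators or assembly chaperones. The other 3 rows were Psmc3ip, a recombination factor that shares only the start of the symbol, the pseudogene Psmb5-ps, and Psme2b, a near copy of Psme2. C57BL6 wild-type adult female mice received an i.p. injection, and live CD45+ cells were sorted from the heart 24 hours later for scRNA-Seq. The ISO group, labelled TTS, received 200 mg/kg ISO, a beta-adrenergic agonist, and the control group received the PBS vehicle. Each group was 1 library, for which the cells of 3 hearts were pooled and 15000 cells were loaded, so the model rests on a sort of all leukocytes with no separate animals. With 1 library per group no test was possible, and the intervals below are 95% intervals that cover counting error only.

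The proteasome is the protease that degrades proteins tagged with ubiquitin. Its barrel-shaped core is built of alpha subunits, which gate the entrance, and beta subunits, some of which cut the substrate, while a regulatory cap binds ubiquitin chains and unfolds the protein with a ring of ATPases. In leukocytes and in cells exposed to interferon gamma, Psmb8, Psmb9 and Psmb10 replace the catalytic subunits Psmb5, Psmb6 and Psmb7 in newly built cores. The resulting immunoproteasome, together with the activator subunits Psme1 and Psme2, makes peptides suited to MHC class I.

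The promoters of the immunoproteasome genes Psmb8 and Psmb9, and of the subunits they replace, Psmb5 and Psmb6, are shown because the results below turn on the ratio of these pairs. Each is the 300 bases from 250 before to 50 after a transcript start, taken from RefSeq on GRCm38.p6 and written 5′ to 3′ on the gene's own strand. Psmb8 lies at chr17:34197945-34198244 (plus strand), Psmb5 at chr14:54617946-54618245 (minus), Psmb9 at chr17:34187281-34187580 (minus) and Psmb6 at chr11:70525107-70525406 (plus). Capitals mark matches, on either strand, to the antioxidant response element TGANNNNGC, the interferon-stimulated response element, the gamma-activated site TTCNNNGAA, CCAAT or the GC box GGGCGG, and overlapping matches are joined.
Psmb8: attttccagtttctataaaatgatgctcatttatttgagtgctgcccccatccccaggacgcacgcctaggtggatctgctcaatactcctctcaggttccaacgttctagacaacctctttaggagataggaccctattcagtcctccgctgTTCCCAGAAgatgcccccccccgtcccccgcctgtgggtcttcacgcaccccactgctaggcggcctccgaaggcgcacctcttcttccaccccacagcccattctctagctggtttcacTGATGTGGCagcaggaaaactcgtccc
Psmb5: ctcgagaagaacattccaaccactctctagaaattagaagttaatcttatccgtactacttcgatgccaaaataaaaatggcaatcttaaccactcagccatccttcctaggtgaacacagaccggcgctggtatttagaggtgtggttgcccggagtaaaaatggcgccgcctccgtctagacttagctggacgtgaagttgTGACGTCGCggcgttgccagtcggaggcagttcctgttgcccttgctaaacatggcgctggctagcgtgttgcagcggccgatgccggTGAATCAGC
Psmb9: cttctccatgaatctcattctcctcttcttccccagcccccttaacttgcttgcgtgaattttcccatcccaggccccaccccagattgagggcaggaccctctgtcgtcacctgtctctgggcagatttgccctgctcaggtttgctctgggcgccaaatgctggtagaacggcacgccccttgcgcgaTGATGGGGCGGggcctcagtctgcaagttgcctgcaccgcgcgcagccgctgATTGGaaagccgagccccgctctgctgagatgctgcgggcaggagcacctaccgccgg
Psmb6: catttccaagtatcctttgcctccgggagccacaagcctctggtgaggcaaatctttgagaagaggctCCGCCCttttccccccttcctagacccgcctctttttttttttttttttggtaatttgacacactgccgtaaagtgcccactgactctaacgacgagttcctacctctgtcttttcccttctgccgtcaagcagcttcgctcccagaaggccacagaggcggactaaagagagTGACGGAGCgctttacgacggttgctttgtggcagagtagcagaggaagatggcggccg
The gamma-activated site in Psmb8 was the only match to that motif among the 6 immunoproteasome windows, and 8.30% of all 32851 windows held it. The interferon-stimulated element was matched in 1 of 6 immunoproteasome windows, that of Psme1, and in 4 of 38 windows of other members, against 3.44% of all windows. For the antioxidant response element the counts were 4 of 6 and 22 of 38, against 41.3% of all windows. For the GC box they were 4 of 6 and 20 of 38, against 35.7%. CCAAT was found in 1 of 6 and 14 of 38, against 37.4%. The Psme2 windows that start at 55590972 and 55591052 overlap. They hold the same antioxidant element and GC boxes, which are counted for each window. Windows were found for 41 of the 50 genes, a match describes letters only, and in the annotation Psmb9 overlaps Tap1, which starts beside it on the other strand.

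After filtering, 5641 control and 5437 ISO cells remained, with 15 barcodes in common and median depths of 4790 and 8537 UMIs. Cells were gated into 11 leukocyte classes by marker scores that used no proteasome gene, and barcodes positive for more than 1 lineage were left out. The lineages were B cells, T cells with NK cells and ILC2, neutrophils, and phagocytes with dendritic cells. Within a lineage a cell went to the class with its highest relative score, so mixtures such as macrophage with dendritic cell were kept. Of 99 gate marker values in the libraries, 92 were highest in their own class, which the gating itself favors, so they do not check the gates. Of 46 values of genes that were not used in the gates, 32 were highest in their own class. The cDC2 gate had 0 of 3 check genes highest in either library, since H2-DMb2, Cd74 and H2-Ab1 were higher in other classes, so its cells are named by the gate only. Only 6 gates held at least 30 cells in each library and were compared: macrophages (980 control and 820 ISO cells), classical monocytes (93 and 2541), cDC1 (71 and 110), cDC2 (92 and 369), B cells (1809 and 37) and group 2 innate lymphoid cells, ILC2 (170 and 94). What the monocyte gate held differed between the libraries. There, the osteopontin gene Spp1 was at 4.51 counts per 1000000 UMIs of the class (CPM) in control and 6109 CPM in ISO, Arg1 was at 0 and 672 CPM, and the monocyte marker Ly6c2 was at 973 and 357 CPM. In the macrophage gate, Spp1 went from 9.38 to 6553 CPM. In the cDC1 gate, the markers Xcr1 went from 241 to 73.1 CPM, Cadm1 from 167 to 35.4 CPM and Wdfy4 from 655 to 442 CPM. Clec9a went from 169 to 136 CPM, Naaa from 1354 to 1456 CPM and Flt3 from 152 to 154 CPM. Of the 3 check genes of cDC1, 1 was highest there in control and 3 in ISO. The sum of 7 macrophage genes in this gate went from 6963.5 to 4071.5 CPM. Of these, 5 were at least 1.5-fold lower in ISO and 1, Spp1, was higher, against 20.7% and 21.5% of all genes. Their median log2 ratio of ISO over control was −1.67. A difference within a gate and a replacement of its cells by others therefore cannot be told apart.

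Most proteasome genes were higher in the ISO library in the phagocyte and dendritic cell gates. Among macrophages, 47 of the 50 genes had at least 20 UMIs, and 39 of these were at least 1.5-fold higher and 2 at least 1.5-fold lower in ISO. Over all 12079 genes compared there, 17% were that much higher and 32.5% that much lower. The median log2 ratio of ISO over control was 1.01 for the proteasome genes and −0.22 for all genes. Psma8, a testis form of an alpha subunit, Psmb11, the thymus form of a catalytic subunit, and Psmb5-ps were the 3 genes below the minimum.

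In the monocyte gate, 28 of 48 proteasome genes were at least 1.5-fold higher and 4 lower, where 19.6% of all genes were higher and 35.4% lower. The median was 0.68, against −0.26 for all genes. These 48 genes included Psma8 and Psmc3ip, which had no UMI in the control monocytes and for which no fold is given. Among the 46 genes with at least 100 UMIs, 26 were higher and the median was also 0.68. In cDC1, 33 of 47 were at least 1.5-fold higher and 1 lower, against 21.5% and 20.7% of all genes, with a median of 0.71. In the cDC2 gate, 28 of 47 were higher and 2 lower, against 15.6% and 25.9%, with a median of 0.72.

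The B cell and ILC2 gates stood closer to all genes. Of 47 genes compared in B cells, 10 were at least 1.5-fold higher and 3 lower, where 25.2% of all genes were higher and 24.5% lower, so the share of members that was higher was near the background and the share that was lower was below it. In all, 35 of the 47 lay above 0, with a median of 0.31 against 0.00128 for all genes, and the ISO values rest on 37 cells. In ILC2, 13 of 46 were higher and 2 lower, against 19.8% and 14.4% of all genes, with a median of 0.39 against 0.11. Transcripts of macrophages, summed over 7 genes, stood at 693 CPM in control and 5501 CPM in ISO B cells, with 4 of 7 genes at least 1.5-fold higher and 2 lower, and at 407 and 1661 CPM in ILC2, with 3 of 7 higher and 1 lower. Their part in these counts was not tested.

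**Figure D1:**
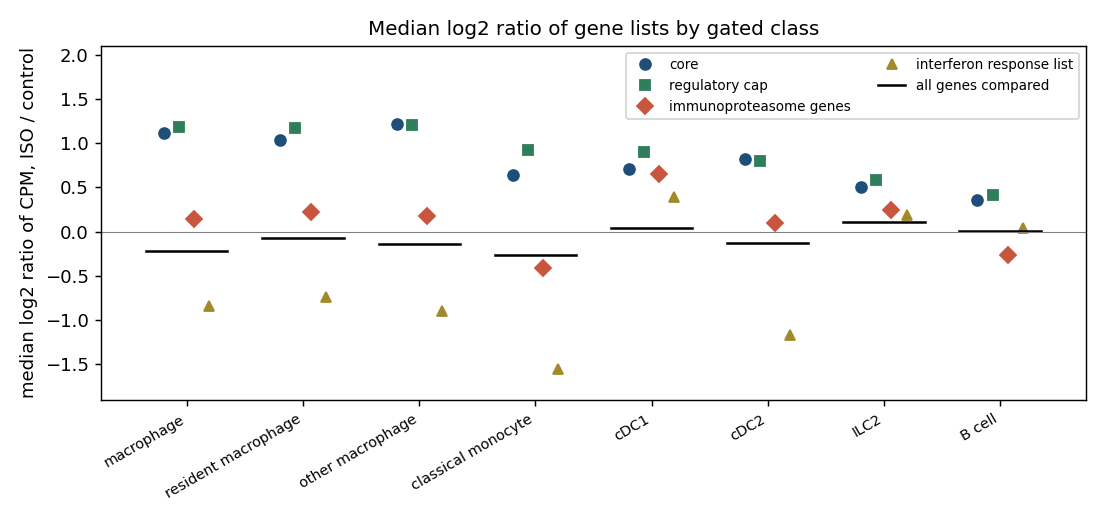
Median log2 ratio of CPM, ISO over control (vertical axis), by gated class (horizontal axis) for the core, regulatory cap, immunoproteasome and interferon response lists, with a black line at the median of all genes compared. In macrophages the core stands at 1.12 and the cap at 1.19, while the immunoproteasome stands at 0.14 and the interferon list at −0.84.

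The core particle was higher throughout in ISO macrophages. All 14 core genes compared were at least 1.5-fold higher in ISO, against 17% of all genes. Their summed level went from 1689 CPM in control to 3578 CPM in ISO, a log2 ratio of 1.08 (1.05 to 1.11). Psma6, an alpha subunit, had the highest ratio of the core. It went from 94.3 CPM (87.6 to 101) to 242 CPM (232 to 253), or 1.36 on the log2 scale (1.24 to 1.48). Psmb1, a beta subunit without its own cutting site, had the lowest, from 177 to 306 CPM, or 0.79 (0.70 to 0.88). The intervals of Psma6 and Psmb1 did not overlap, so the core ratios differed by more than their counting error. They did not separate alpha from noncatalytic beta subunits, whose medians were 1.08 for 7 alpha genes and 1.09 for the 4 noncatalytic beta genes.

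In the monocyte gate the core was higher by less. Its sum was 2500 CPM in control and 3525 CPM in ISO, 0.50 (0.43 to 0.56). Psma6 again had the highest ratio, from 106 to 227 CPM, or 1.09 (0.80 to 1.41). Psma7, an alpha subunit, was at 510 CPM in control and 492 CPM in ISO, a log2 ratio of −0.05 (−0.19 to 0.09), and against the all-gene median it was above 0. The control monocytes thus already carried more core transcripts than the control macrophages, while the 2 gates were close in ISO. In cDC1 the sum went from 2610 to 4328 CPM, 0.73 (0.66 to 0.79), and in the cDC2 gate from 2238 to 3839 CPM, 0.78 (0.71 to 0.84).

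The 3 constitutive catalytic subunits followed the rest of the core. Psmb5, which carries the chymotrypsin-like activity, was at 41.3 CPM (36.9 to 46.0) in control macrophages and at 92.5 CPM (86.3 to 99.1) in ISO macrophages, a log2 ratio of 1.16 (0.98 to 1.35). Psmb6, the caspase-like subunit, went from 142 to 318 CPM, also 1.16 (1.06 to 1.26). Psmb7, the trypsin-like subunit, went from 65.1 to 134 CPM, or 1.04 (0.89 to 1.19). The intervals of the control and ISO levels did not overlap for any of the 3. Among monocyte-gated cells their log2 ratios were 0.58 for Psmb5, 0.68 for Psmb6 and 0.74 for Psmb7. In cDC1, Psmb7 was at 133 CPM in control and 141 CPM in ISO, 0.09 (−0.23 to 0.41), and the interval allowed no difference.

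The regulatory cap showed the same picture, and in monocytes a larger difference than the core. In macrophages all 17 cap genes were at least 1.5-fold higher, against 17% of all genes. The sum went from 1224 to 2633 CPM, 1.11 (1.07 to 1.14). Psmc5, an ATPase of the cap base, went from 68.4 CPM (62.8 to 74.5) to 196 CPM (186 to 205), 1.51 (1.37 to 1.66). Psmc4, another ATPase of the ring, went from 58.5 to 155 CPM, 1.41 (1.25 to 1.56). The lowest cap gene was the ATPase Psmc1, from 57.5 to 86.7 CPM, 0.59 (0.42 to 0.76), so even within the ATPase ring the ratios differed by more than their counting error.

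In the monocyte gate 16 of 17 cap genes were at least 1.5-fold higher, against 19.6% of all genes. The sum went from 1249 to 2369 CPM, 0.92 (0.84 to 1.01). Psmd1, the scaffold of the cap base, had the highest ratio of the cap, from 38.4 CPM (26.6 to 53.6) to 111 CPM (106 to 115), 1.51 (1.04 to 2.06). The control value rests on 34 UMIs, which sets the width of that interval. In cDC1 the 3 members with the highest ratios were lid subunits. Psmd6 went from 62.8 to 154 CPM, 1.29 (0.89 to 1.71), Psmd12 from 58.3 to 141 CPM, 1.27 (0.86 to 1.71), and Psmd7 from 67.3 to 155 CPM, 1.195 (0.81 to 1.605). In the cDC2 gate Psma4, an alpha subunit, went from 74.9 to 185 CPM, 1.29 (0.96 to 1.67), and Psmc5 from 70.9 to 167 CPM, 1.23 (0.88 to 1.62).

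The 7 assembly chaperones were also higher in macrophages, 6 of them by at least 1.5-fold, against 17% of all genes. Psmg1, which helps to form the alpha ring, had the highest ratio of all members in 3 gates. In macrophages the level was 10.52 CPM (8.38 to 13.04) under control and 33.9 CPM (30.2 to 38.0) in ISO, 1.68 (1.33 to 2.06). Among monocyte-gated cells it went from 7.90 to 28.8 CPM, 1.77 (0.81 to 3.18), with only 7 control UMIs. For cDC2-gated cells, it went from 13.99 to 40.3 CPM, 1.48 (0.73 to 2.43). Psmg2, the partner of Psmg1, went from 6.77 to 20.7 CPM in the monocyte gate, 1.497 (0.48 to 3.06). The lowest chaperone in macrophages was Psmd5, at 11.9 and 16.2 CPM, 0.44 (0.06 to 0.84).

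**Figure D2:**
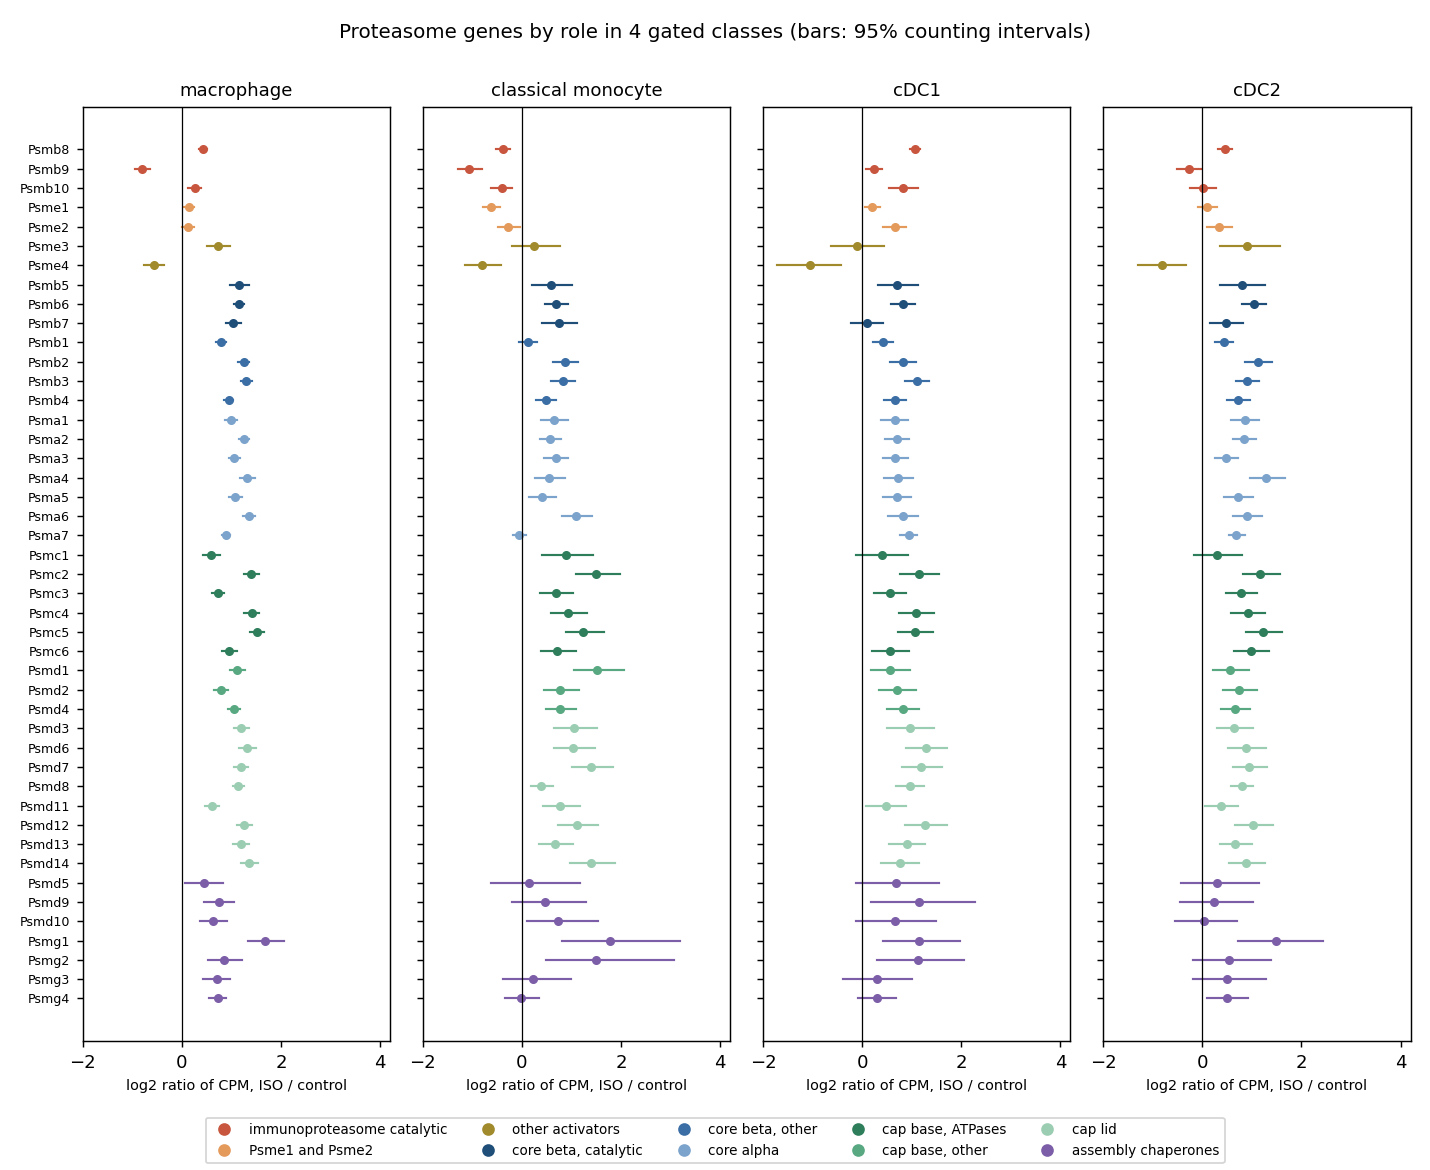
Log2 ratio of CPM, ISO over control (horizontal axis), for each proteasome gene (vertical axis) in 4 gated classes, colored by role, with bars for 95% counting intervals. In macrophages the core and cap genes lie between 0.59 and 1.51, whereas Psmb9 is at −0.80 and Psme4 at −0.56.

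The immunoproteasome genes did not share the difference of the core. In macrophages none of the 5 genes was at least 1.5-fold higher and 1 was lower, against 17% and 32.5% of all genes. Their median was 0.14, against −0.22 for all genes. The median was 0.25 with equal weight for each cell, 0.36 after centring on all genes and 0.38 when each cell was thinned to 1000 UMIs, and under each it stood below that of all members. Psmb8, which replaces Psmb5, was at 270 CPM (258 to 281) in the control library and 361 CPM (349 to 374) in ISO, 0.42 (0.34 to 0.50). Psmb10, which replaces Psmb7, was at 120 CPM (112 to 128) and 143 CPM (135 to 151), 0.26 (0.13 to 0.38). Psmb9, which replaces Psmb6, was lower in ISO, at 119 CPM (111 to 127) in the control library and 68.1 CPM (62.7 to 73.8) in ISO, −0.80 (−0.95 to −0.65). Psmb8 and Psmb9 are neighbours in the MHC locus and yet stood on opposite sides of 0 in these cells.

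In the monocyte gate all 5 were lower in ISO, with a median of −0.41, or −0.15 after centring on all genes. Psmb9 was at 169 CPM (143 to 199) in the control library and 81.3 CPM (77.7 to 85.0) in ISO, −1.06 (−1.30 to −0.81). Psmb8 was at 520 CPM (474 to 570) and 398 CPM (390 to 406), −0.39 (−0.52 to −0.25). Psmb10 was at 221 CPM (191 to 254) and 167 CPM (162 to 172), −0.41 (−0.61 to −0.19). The control and ISO intervals of these 3 genes did not overlap.

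In cDC1, the dendritic cells specialized for cross-presentation on MHC class I, 3 of 5 immunoproteasome genes were at least 1.5-fold higher. This compares with 21.5% of all genes, and the median was 0.66 against 0.04 for all genes. Markers of this gate also differed between the libraries, as given above, and their part in this result was not tested. Control cDC1 were deeper than ISO cDC1, with medians of 15380 and 10495 UMIs, and when each cell was thinned to 1000 UMIs the median was 1.18. Psmb8 was at 864 CPM (811 to 921) in the control library and at 1809 CPM (1736 to 1884) in ISO, 1.06 (0.96 to 1.18). Psmb10 was at 133 CPM (112 to 156) and 236 CPM (210 to 264), 0.83 (0.54 to 1.12). Psmb9 was at 521 CPM (480 to 566) and 618 CPM (575 to 662), 0.24 (0.09 to 0.40). The ratio of Psmb8 thus stood above the core median of 0.71 here, while that of Psmb9 was the smallest of the 3. In the cDC2 gate none of the 5 passed 1.5-fold either way, where 15.6% of all genes were higher and 25.9% lower. The thinned median was 0.37. Psmb8 was at 480 and 659 CPM, 0.46 (0.32 to 0.60), Psmb10 at 155 and 156 CPM, 0.01 (−0.25 to 0.28), and Psmb9 at 184 and 153 CPM, −0.27 (−0.51 to −0.02).

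Psme1 and Psme2 encode the 2 subunits of the ring that opens the gate of the core. In macrophages Psme1 was at 191 CPM (181 to 201) in the control library and 211 CPM (201 to 221) in ISO, 0.14 (0.04 to 0.24), and Psme2 at 133 CPM (125 to 141) and 144 CPM (137 to 153), 0.12 (0.00 to 0.24). The control and ISO intervals overlapped for Psme2 and only just separated for Psme1. Among monocyte-gated cells Psme1 was at 343 CPM (306 to 384) and 224 CPM (218 to 230), −0.62 (−0.79 to −0.45), and Psme2 at 191 and 158 CPM, −0.27 (−0.49 to −0.04). In cDC1 Psme2 was at 221 and 348 CPM, 0.66 (0.43 to 0.89), and Psme1 at 571 and 658 CPM, 0.21 (0.06 to 0.36). For cDC2-gated cells, the log2 ratios were 0.10 (−0.09 to 0.29) for Psme1 and 0.34 (0.09 to 0.60) for Psme2.

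The other activators differed from each other. Psme3, a nuclear activator that is not tied to interferon, was at 32.1 CPM (28.2 to 36.3) in control macrophages and 53.6 CPM (48.8 to 58.6) in ISO macrophages, 0.74 (0.52 to 0.97). Psme4, which caps the core without binding ubiquitin, was lower, at 60.7 CPM (55.4 to 66.4) and 41.1 CPM (37.0 to 45.6), −0.56 (−0.76 to −0.36). In the monocyte gate Psme3 was at 44.0 and 52.8 CPM, 0.24 (−0.20 to 0.76), and Psme4 at 75.6 and 43.6 CPM, −0.80 (−1.15 to −0.41). Psme4 in this gate was at 0.0181 when each cell was thinned to 1000 UMIs. In the cDC2 gate Psme3 was at 28.0 and 53.4 CPM, 0.91 (0.35 to 1.56), and Psme4 at 54.96 and 31.2 CPM, −0.82 (−1.30 to −0.32). In cDC1 Psme3 was at 53.0 and 49.5 CPM, −0.10 (−0.63 to 0.44), and Psme4 at 53.8 and 25.9 CPM, −1.04 (−1.71 to −0.42).

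Psme2b had the lowest ratio of all members in macrophages and monocytes. Macrophages held 42.3 CPM (37.9 to 47.1) in the control library and 20.7 CPM (17.8 to 23.9) in the ISO library, −1.03 (−1.30 to −0.77), and the monocyte gate held 55.3 and 16.6 CPM, −1.75 (−2.16 to −1.27). For cDC2-gated cells, it was at 38.97 and 21.9 CPM, −0.84 (−1.41 to −0.24), and in cDC1 at 46.7 and 39.3 CPM, −0.25 (−0.84 to 0.34). Its transcript was identical to that of Psme2 at 789 of 794 aligned bases, and it overlaps Gm12185 and 9930111J21Rik1 on the same strand, so its counts are uncertain. In macrophages there were 3.13 Psme2 UMIs per Psme2b UMI in control (2.77 to 3.56) and 6.98 in ISO (5.97 to 8.21), a ratio that differed between the libraries.

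The ratio of an immunoproteasome subunit to the subunit it replaces is free of the scaling of the libraries. Psmb9 UMIs per Psmb6 UMI were 0.83 (0.76 to 0.91) in control macrophages and 0.21 (0.20 to 0.23) in ISO macrophages. Among monocyte-gated cells they were 0.96 (0.76 to 1.203) and 0.29 (0.27 to 0.30), and in the cDC2 gate 1.16 (0.94 to 1.45) and 0.47 (0.42 to 0.52). In cDC1 they were 2.77 (2.36 to 3.26) and 1.85 (1.64 to 2.09). The ratio was lower in ISO in all 4 gates without overlap of the intervals, and cDC1 kept a Psmb9 share above the other 3 gates in each library.

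Psmb8 per Psmb5 was lower in ISO without overlap of the intervals in macrophages and monocytes. It was 6.53 (5.81 to 7.36) in control and 3.904 (3.61 to 4.22) in ISO macrophages, and 8.54 (6.43 to 11.5) and 4.32 (4.13 to 4.53) in the monocyte gate. In cDC1 it was 12.2 (9.68 to 15.5) and 15.6 (13.2 to 18.5), with overlapping intervals. In the cDC2 gate the values were 9.80 (7.29 to 13.4) and 7.71 (6.83 to 8.74), which also overlapped. Psmb10 per Psmb7 was 1.84 (1.65 to 2.05) and 1.07 (0.99 to 1.16) in macrophages, and 2.88 (2.18 to 3.86) and 1.29 (1.23 to 1.36) in the monocyte gate. In cDC1 it was instead higher in ISO, at 1 (0.79 to 1.26) in control and 1.67 (1.38 to 2.02) in ISO.

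**Figure D3:**
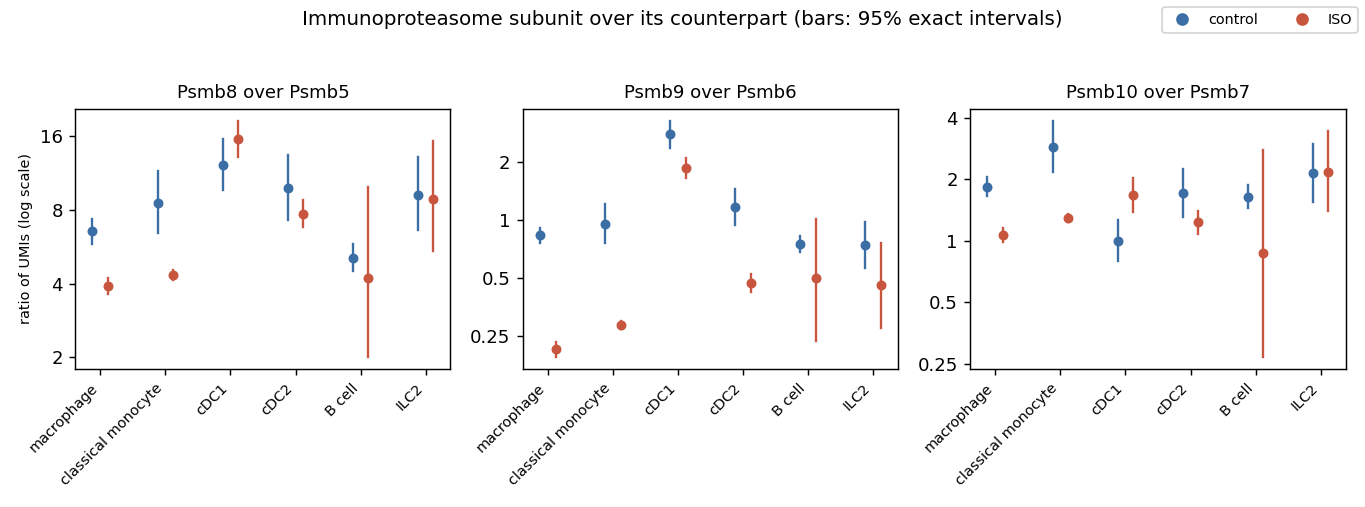
UMIs of an immunoproteasome subunit per UMI of the subunit it replaces (vertical axis, log scale) by gated class (horizontal axis) in control (blue) and ISO (red), with bars for 95% exact intervals. Psmb9 over Psmb6 is 0.83 in control and 0.21 in ISO macrophages and stands at 2.77 and 1.85 in cDC1.

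Across the gates with at least 30 cells, cDC1 held the highest level of Psmb8, Psmb9, Psme1 and Psme2 in each library, although for Psme2 in control the interval of cDC1 at 221 CPM overlapped with that of the classical monocytes at 191 CPM. For Psmb8 in control, cDC1 at 864 CPM stood above the classical monocytes at 520 CPM without overlap of the intervals, and from there neighbouring classes overlapped down to the macrophages at 270 CPM. B cells followed at 234 CPM, below the macrophages, and then neutrophils at 163 CPM. In ISO the order was cDC1 at 1809 CPM, the cDC2 gate at 659 CPM, ILC2 at 435 CPM, the monocyte gate at 398 CPM, macrophages at 361 CPM and B cells at 259 CPM. There, ILC2 and monocytes overlapped, as did macrophages and B cells, while each other step was larger than the counting intervals.

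For Psmb9, cDC1 at 521 CPM in control was followed by the cDC2 gate at 184 CPM, and below that neighbours overlapped down to ILC2 at 99.4 CPM. In ISO, cDC1 at 618 CPM again stood apart from the cDC2 gate at 153 CPM, and ILC2 and macrophages came last at 68.4 and 68.1 CPM. For Psmb10 the control order began with classical monocytes at 221 CPM and NK cells at 220 CPM, with cDC1 at 133 CPM in the middle, whereas in ISO cDC1 was highest at 236 CPM and overlapped with ILC2 at 183 CPM. For Psmb5 all neighbouring classes overlapped in each library, but some classes further apart did not. In control, cDC1 (56.1 to 88.4) stood above macrophages (36.9 to 46.0), and in ISO, cDC1 (98.3 to 137) stood above ILC2 (29.2 to 77.8). Psmb5 ranged from 70.9 CPM in cDC1 to 28.0 CPM in neutrophils in control, and from 116 CPM in cDC1 to 49.2 CPM in ILC2 in ISO.

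**Figure D4:**
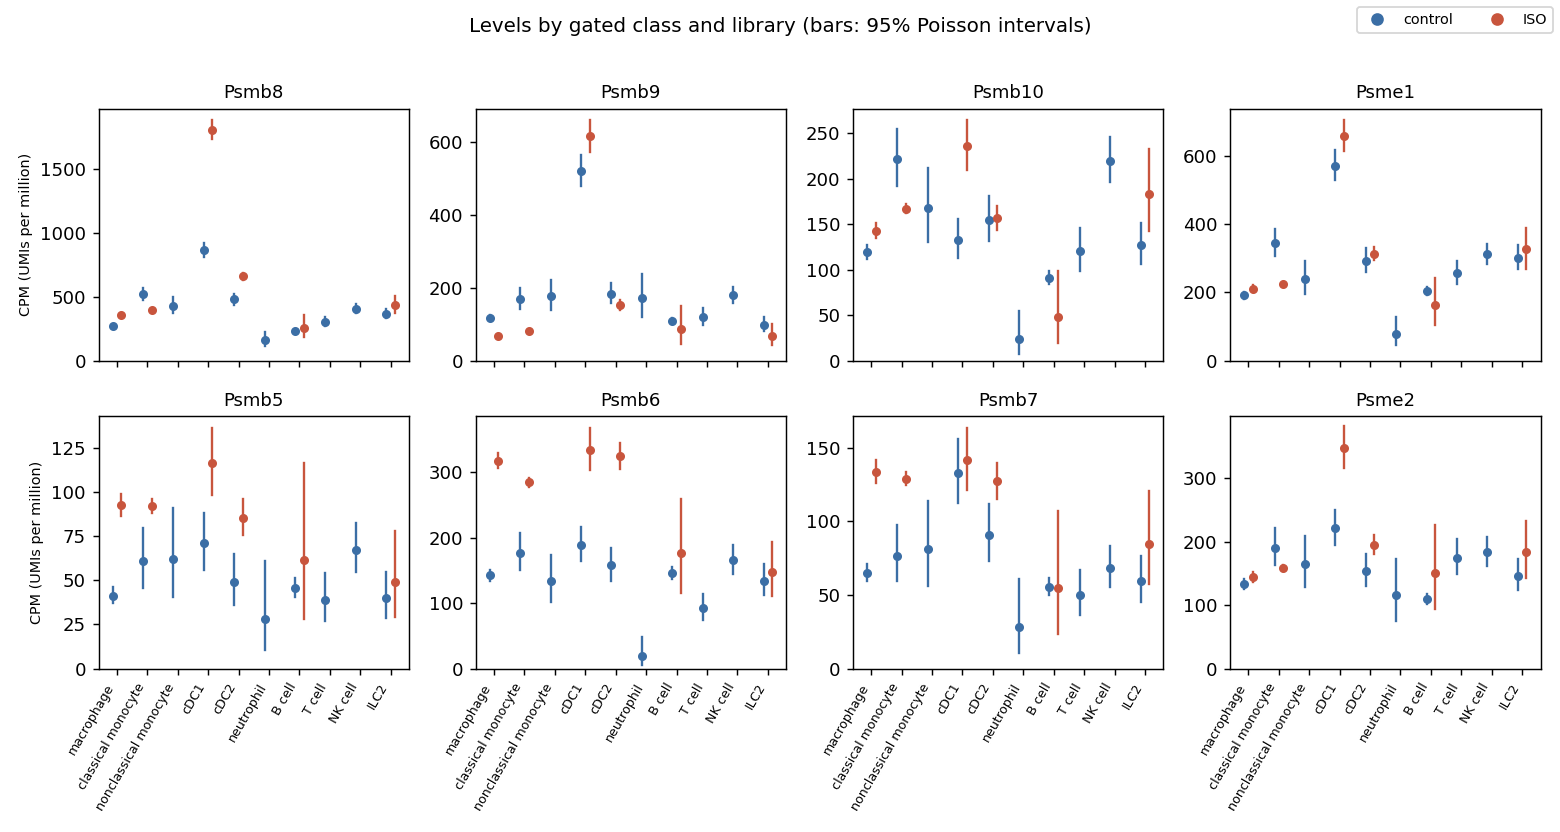
Level in CPM (vertical axes, starting at 0) of 8 genes by gated class (horizontal axis) in control (blue) and ISO (red), shown where a class had at least 30 cells, with bars for 95% Poisson intervals. For Psmb8, cDC1 stands at 864 CPM in control and 1809 CPM in ISO, above each other class.

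Among single macrophages, the libraries separated by the 45 members outside the immunoproteasome, which include the core and cap, more than by the immunoproteasome genes. The summed 45 genes other than the immunoproteasome had a median of 28.7 UMIs per 10000 in control macrophages, with quartiles of 21.6 and 36.6. In ISO macrophages the median was 63.3, with quartiles of 52.3 and 74.5, so the lower quartile in ISO lay above the upper quartile in control. For the 5 immunoproteasome genes the medians were 6.99 (quartiles 4.52 and 10.2) and 8.09 (5.66 and 11.3). In cDC1 the immunoproteasome genes separated in the same way, with a median of 21.0 (14.6 and 27.7) in control and 37.3 (29.2 and 47.7) in ISO.

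The libraries differ in depth, so shares of cells with a UMI were compared after thinning to 1000 UMIs. Psmb8 was found in 47.9% of cDC1 in control (35.9 to 60.1) and in 80.9% in ISO (72.3 to 87.8), where the unthinned shares were 91.5% and 100%. In macrophages it was found in 21.3% (18.8 to 24.0) and 28.4% (25.4 to 31.6), unthinned 71.2% and 88.4%. Psmb9 was found in 10.0% of control (8.19 to 12.1) and 5.37% of ISO macrophages (3.93 to 7.14), unthinned 47.7% and 42.4%. In the same thinned cells Psmb5 was found in 3.78% (2.67 to 5.17) and 9.02% (7.15 to 11.2). Leukocytes in general transcribe these genes, so no gate here served as a background for free RNA.

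Macrophages were split by a resident list (Timd4, Lyve1, Folr2, Cd163 and Cbr2), because the ISO library held fewer resident cells, 302 against 696 in control, and more others, 518 against 284. The pattern was present in each. In resident macrophages 36 of 47 proteasome genes were at least 1.5-fold higher and 1 lower, where 17.8% and 23.9% of all genes were, with a median of 0.94. In the other macrophages 38 of 47 were higher and 3 lower, against 20.9% and 31.1%, with a median of 1.15.

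Psmb9 was at 114 CPM (105 to 123) in the control library and 79.3 CPM (69.9 to 89.5) in ISO resident macrophages, −0.52 (−0.73 to −0.31). In the other macrophages it was at 132 CPM (117 to 148) and 61.4 CPM (55.04 to 68.3), −1.10 (−1.33 to −0.87). Psmb6 was nearly alike in the subsets, with log2 ratios of 1.19 (1.05 to 1.32) and 1.14 (0.97 to 1.33). Within the control library, resident over other macrophages gave −0.22 for Psmb9 (−0.42 to −0.01), and within the ISO library 0.37 (0.13 to 0.61). For all members compared, the median of resident over other was 0.12 in control and −0.00156 in ISO, against 0.08 and 0.17 for all genes. Psmb10 was at 0.39 in control (0.17 to 0.62) and at 0.10 in ISO (−0.07 to 0.26).

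Among lymphocytes the counts limited what could be seen. In B cells the intervals of Psmb5, Psmb6 and Psmb7 all included 0, and so did those of the 5 immunoproteasome genes. The lowest members by the naming rule were Psmc6 at −0.89 (−2.45 to 0.13), Psmb10 at −0.84 (−2.26 to 0.11) and Psmd10 at −0.80 (−4.17 to 0.76). The highest were Psmd6, from 61.1 to 136 CPM, 1.19 (0.43 to 1.80), Psmc4, from 74.8 to 157 CPM, 1.09 (0.39 to 1.67), and Psmd14, the deubiquitinase of the lid, from 49.4 to 102 CPM, 1.09 (0.19 to 1.79). The ISO values of these 6 genes rest on 2 to 23 UMIs. For Psmb10 the sign turned, to 0.11 at a gate limit of 55%, 0.43 with barcodes of several lineages kept and 0.00974 when thinned.

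In ILC2 10 of 17 cap genes were at least 1.5-fold higher, against 19.8% of all genes. The genes named next are the ends among the 18 members with at least 100 UMIs. Psmd4, a ubiquitin receptor of the cap, was at 116 and 194 CPM, 0.75 (0.30 to 1.19), Psma2 at 159 and 263 CPM, 0.73 (0.34 to 1.10), and Psmc3 at 103 and 161 CPM, 0.65 (0.15 to 1.12). At the other end stood Psmb9 at 99.4 and 68.4 CPM, −0.52 (−1.24 to 0.11), Psmb4 at 188 and 164 CPM, −0.19 (−0.64 to 0.23), and Psme1 at 301 and 326 CPM, 0.12 (−0.21 to 0.42). The intervals of these last 3 included 0. Members with fewer UMIs reached further, up to Psmc2 at 1.37. Psme3 was at 54.3 and 24.6 CPM, −1.08, with 9 UMIs in ISO. The lowest was Psme2b at 37.9 and 10.9 CPM, −1.64, with 4 UMIs in ISO.

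Gates with at least 20 cells in each library were added after the data were seen. In T cells 28 of 43 proteasome genes were at least 1.5-fold higher and 3 lower, against 26.9% and 22.7% of all genes, with a median of 0.73 against 0.06. In NK cells 23 of 46 were higher and 2 lower, against 20.5% and 30%, with a median of 0.59 against −0.13. Macrophage transcripts went from 425 to 7631 CPM in sum in T cells and from 301 to 7455 CPM in NK cells, with 5 of 7 genes higher in each, and B cell transcripts from 457 to 2172 CPM and from 189 to 1660 CPM. The B cell sums include Cd74, a gene macrophages also use. The part of these transcripts in the counts was not tested. In neutrophils only 27 genes could be compared, of which 21 were higher and 1 lower, against 31.3% and 32.8%. There, the 4 neutrophil transcripts were all lower, from 97147 to 25163 CPM in sum. Macrophage transcripts went from 3612 to 12607 CPM, with 4 of 5 compared genes at least 1.5-fold higher, up to Spp1 at 10.8, and C1qb lower at −0.77. B cell transcripts went from 550.0 to 4241 CPM, where only 2 genes were compared, Cd74 at 3.25 and Ighm at −1.17. The part of these transcripts in this count was not tested. Psmb9 was the lowest member with at least 100 UMIs in T cells, at 119 and 66.9 CPM, −0.76 (−2.0004 to 0.15), and in NK cells, at 180 and 127 CPM, −0.45 (−1.36 to 0.25), with intervals that included 0. In neutrophils, which had no member with 100 UMIs, Psmb9 was at 172 CPM (121 to 238) in control, from 37 UMIs, and at 32.5 CPM (10.55 to 75.8) in ISO, from 5 UMIs.

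Partners of the proteasome outside the symbol rule followed it in part. Of 7 partner genes, 4 were at least 1.5-fold higher in macrophages, with a median of 0.70. Adrm1, a ubiquitin receptor of the cap, was highest, from 13.8 to 30.3 CPM, 1.13 (0.80 to 1.47), and Akirin2, which carries proteasomes into the nucleus, lowest, at 75.5 and 70.2 CPM, −0.10 (−0.27 to 0.06), a sign that flips after centring on all genes. Of 5 genes of the pathway that induces proteasome genes through Nfe2l1, none was higher and 1 was lower in macrophages. This was Ddi2, the protease that activates Nfe2l1, at 69.9 and 28.9 CPM, −1.27 (−1.496 to −1.06), and in the monocyte gate it was at 100.5 and 31.2 CPM, −1.70 (−2.01 to −1.36). The median of this list was −0.13 in macrophages and −0.48 in the monocyte gate, near the −0.22 and −0.26 of all genes in the first and below it in the second. Of 6 ubiquitin genes, 1 was higher and 2 lower in macrophages, from Rps27a, which encodes ubiquitin fused to a ribosomal protein, at 1046 and 1848 CPM, 0.82 (0.78 to 0.86), to the polyubiquitin gene Ubb at 1041 and 566 CPM, −0.88 (−0.93 to −0.83). Over all genes 17% were higher and 32.5% lower in macrophages, so the counts of the ubiquitin list were close to the background.

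The lists that share inducers or function with the immunoproteasome were lower in macrophages and monocytes. Of 12 interferon response genes, 8 were at least 1.5-fold lower and none higher in macrophages, where 32.5% of all genes were lower, with a median of −0.84 against −0.22. The same counts held in the monocyte gate, where 35.4% were lower, with a median of −1.55 against −0.26. Gbp2, a guanylate-binding protein induced by interferon gamma, was lowest, at 27.1 and 6.28 CPM in macrophages, −2.10 (−2.56 to −1.68), and at 77.9 and 11.1 CPM in the monocyte gate, −2.81 (−3.19 to −2.40). In cDC1, where 8 of the 12 genes could be compared, 4 were higher and 2 lower, against 21.5% and 20.7% of all genes, with a median of 0.40. Ifi47 was highest there, at 2.69 and 18.1 CPM, 2.56 (1.02 to 5.13), with 3 UMIs in control, and Irf1 lowest, at 83.5 and 42.4 CPM, −0.97 (−1.49 to −0.48). For cDC2-gated cells, 9 of 11 were lower, where 25.9% of all genes were, with a median of −1.17 against −0.13.

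Of 10 genes of MHC class I presentation, 5 were lower and 1 higher in macrophages, against 32.5% and 17% of all genes, with a median of −0.63. Among monocyte-gated cells 7 were lower and 2 higher, against 35.4% and 19.6%, with a median of −0.80. B2m, the light chain of MHC class I, was lowest in macrophages, at 2283 and 1130 CPM, −1.02 (−1.05 to −0.98), and the chaperone Pdia3 was highest, at 303 and 456 CPM, 0.59 (0.52 to 0.66). In the monocyte gate the transactivator Nlrc5 was lowest, at 53.0 and 11.5 CPM, −2.22 (−2.66 to −1.73), and the chaperone Calr highest, at 436 and 1007 CPM, 1.21 (1.06 to 1.36). The list was mixed in cDC1, with 2 genes higher and 2 lower, shares near the 21.5% and 20.7% of all genes.

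Transcripts of other cells also differed between the libraries. In macrophages the 5 B cell genes, which include Cd74, a gene macrophages also use, were all at least 1.5-fold lower in ISO, with a sum of 19111 CPM in control and 4832 CPM in ISO. The 6 cardiomyocyte genes were all lower, from 165 to 67.2 CPM in sum, and 5 of 7 genes of dissociation stress were lower, from 11784 to 7457 CPM. Over all genes in macrophages, 32.5% were at least 1.5-fold lower. Among monocyte-gated cells the neutrophil genes went from 103 to 641 CPM in sum. Of these 4 genes, 3 were higher and 1 lower, against 19.6% and 35.4% of all genes. The median mitochondrial share of macrophages was 4.17% in control and 2.12% in ISO. The part of these differences in the results was not tested, except that removing a profile of free RNA at 10% of UMIs left the macrophage immunoproteasome median at 0.16 and that of the monocyte gate at −0.47.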

How the data were processed

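CD45+ cells of the heart were measured by scRNA-Seq in 1 control and 1 ISO library. Per the submitters' processing notes, reads were handled with bcl2fastq 2.19.1.403, UMI-tools 1.0.0, STAR 2.7.3a and featureCounts 1.6.4 on mm10. The authors deposited UMI counts per gene and barcode without normalization. The annotation release and the strand setting are not given in the sources used here, so reads of overlapping genes may be shared. The sample labels give the same treatment text for both libraries, and the control was taken from its title.

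Kept barcodes had above 500 but below 6000 genes, and their mitochondrial share was under 25%. A gate score was the mean of ln(1 + UMIs per 10000) over its markers, and a cell was positive at 40% of the median score of cells with at least 50% of the markers. Doublets were not called, and the 1614 control and 1111 ISO barcodes positive for several lineages were left out. Resident macrophages had at least 2 UMIs per 10000 of the resident list. UMIs were summed per gate and library, 0.5 UMI was added for ratios, and genes with at least 20 UMIs were compared. Levels have exact Poisson intervals, ratios exact conditional binomial intervals and shares exact Clopper-Pearson intervals, at 95%. Positions and overlaps came from an annotation of GRCm38, and motifs were searched in RefSeq promoter windows of GRCm38.p6.

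The genes named were the 5 immunoproteasome genes, the 3 subunits they replace, Psme3, Psme4, and in each gate the 3 members with the highest and the 3 with the lowest ratio among those with at least 100 UMIs. Of other lists, the highest and lowest genes were named. Ratios named for a role group, Psme2b, the 3 rows outside the proteasome and genes of the gates were chosen after their values were seen. The members and lists were chosen with earlier results of these data known. The tools were Python 3.11.15, pandas 2.3.3, scipy 1.17.1, numpy 2.4.6 and matplotlib 3.10.9, and the ratio step was tested on simulated data.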

Additional observations from a re-analysis of the deposited data

How the results depend on the processing

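With 1 library per group, no replicate could be left out and no value could be tested. No paired analysis was possible because each group is 1 library. The 13 alternatives chosen at the start changed the gate limit, the treatment of barcodes of several lineages, the weight and depth of cells, cell filters, scaling, the UMI minimum, the added UMI, free RNA and the deepest cells. Each list median was computed under each alternative, and 197 of these values moved by less than the counting interval and 11 by more. The immunoproteasome median of B cells was −0.26 at the main settings and ranged from −0.26 to 0.43. That of other macrophages was 0.18 and ranged from −0.11 to 0.32, so each changed sign under some alternative. Of the values other than list medians, 1064 moved by less, 68 by more and 4 turned direction. Centring on all genes gave 1.23 for macrophage members, 0.36 for the macrophage immunoproteasome, 0.94 for members in the monocyte gate and −0.15 for its immunoproteasome. Thinning each cell to 1000 UMIs gave immunoproteasome medians of 0.38 in macrophages, 1.18 in cDC1, 0.37 in the cDC2 gate, 0.49 in resident macrophages and −0.11 in other macrophages. Equal weight for each cell gave 0.25 for the macrophage immunoproteasome, and keeping barcodes of several lineages gave 0.93 for members in other macrophages. For single genes, the direction turned for Psme4 in the monocyte gate (0.0181 when thinned) and for Psmb10 in B cells (0.11 at a gate limit of 55%, 0.43 with barcodes of several lineages kept, and 0.00974 when thinned). The cause was not tested. Few UMIs stand behind single genes in gates with few cells, such as the 37 ISO B cells, 71 control cDC1, 93 control monocytes and 94 ISO ILC2.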
